A study of Mus musculus with 8 samples.

Results

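Interferon-stimulated genes are genes whose transcription is switched on by interferons, secreted proteins that warn cells of viruses and of misplaced nucleic acid. The set described here is 43 classical members, chosen by gene name from the 28295 genes of a table of RNA sequencing values for mouse fat. All 43 had a row, and all 43 passed the filter on low values used for testing (a mean of at least 0.5 over the 8 libraries, in FPKM, which scales fragment counts to gene length in kilobases and to units of 1000000 mapped fragments). In the fat of mice labelled as lacking cullin 3 in adipocytes, 37 of the 43 were called higher than in WT and 1, Ifi27, lower. Of all genes tested, 11.7% were called higher and 18.6% lower.

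The tissue was epididymal white fat of male mice that had eaten a Western diet for 8 weeks and were then fasted for 6 h. The WT group (4 libraries, WT1 to WT4) was Cul3-flox/flox, in which loxP sites flank both copies of Cul3, and its labels name no Cre. The KO group (4 libraries, KO1 to KO4) was AdipoQ-Cre;Cul3-flox/flox, which adds a Cre driven by the adiponectin promoter. That promoter is active in adipocytes, so the other cells of the fat pad should keep their Cul3. Ages, strain and the mouse behind each library are not given in the sources used here, so p-values measure the spread between these libraries. Values per library are listed in the order WT1 to WT4, then KO1 to KO4. Group means carry the SD (n = 4 libraries), and log2 fold changes carry their standard error.

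As background, type I interferons bind a receptor made of IFNAR1 and IFNAR2, and the kinases JAK1 and TYK2 then activate STAT2 and other transcription factors. With IRF9 these bind interferon-stimulated response elements in the promoters of many interferon-stimulated genes. Interferon-gamma acts through another receptor. The products block viral RNA and protein synthesis, tag proteins with the ubiquitin-like ISG15, and feed back on the pathway. In fat, both adipocytes and macrophages can respond to interferon.

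Cul3 itself did not check the labels. Its level was 11.4, 9.66, 12.4 and 11.5 FPKM in WT and 10.6, 11.2, 13.2 and 12.99 FPKM in KO-labelled fat (log2 fold change 0.092 ± 0.10, adjusted p = 0.520; exact two-sided permutation test of FPKM, p = 0.429). A single value for the gene cannot show the loss of some exons. The groups are therefore called WT and KO-labelled, and every direction rests on those labels. Reads recovered from the FPKM values came to 15.2 to 19.7 M per library in listed genes (M, 1000000 reads). Adipoq, the hormone gene that defines adipocytes, was at 269.6 to 744.5 FPKM in all 8 libraries, and 8 of 9 adipocyte markers were called lower in the KO-labelled libraries. Their summed level was 7489, 9400.2, 6652 and 5324 FPKM in WT and 3533, 3195, 3239 and 4394 FPKM in the KO-labelled libraries, with no overlap. In bulk tissue, fewer cells of a type and less RNA per cell cannot be told apart. Some libraries stood apart. Liver genes were highest in WT2 and WT1 (5 markers, 453 and 122 FPKM in sum, 4.40 to 33.0 FPKM in the others). Epididymis genes were highest in KO1 and WT2 (213.8 and 53.2 FPKM in sum, 0.0471 to 8.43 FPKM in the others). The 13 macrophage markers summed to 664, 577, 568.5 and 1556 FPKM in WT and to 1844, 1750.1, 1311 and 786 FPKM in the KO-labelled libraries, so WT4 was high and KO4 low for its group. Of these 13 markers, 7 were called higher and none lower in the KO-labelled libraries.

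Set against the whole table, the members stood mostly on one side. Of 14400 genes tested, 30.4% were called, 11.7% as higher and 18.6% as lower in the KO-labelled libraries (limma, Benjamini-Hochberg adjusted p under 0.05). Of the 43 members, 37 were called higher, 1 lower and 5 neither. The median log2 fold change of the members was 1.10, beside -0.02 for all genes tested, on the log2(FPKM + 0.5) scale used throughout. For 25 members the rise was called and at least 1 on the log2 scale, a size that 2.78% of all genes reached. In 36 members every KO-labelled library lay above every WT library, against 12.1% of all genes. The fold change was above 0 in 42 members, against 47.3% of all genes. The members were listed with earlier results of these data known, so the counts describe the list and are not a test of it.

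**Figure D1:**
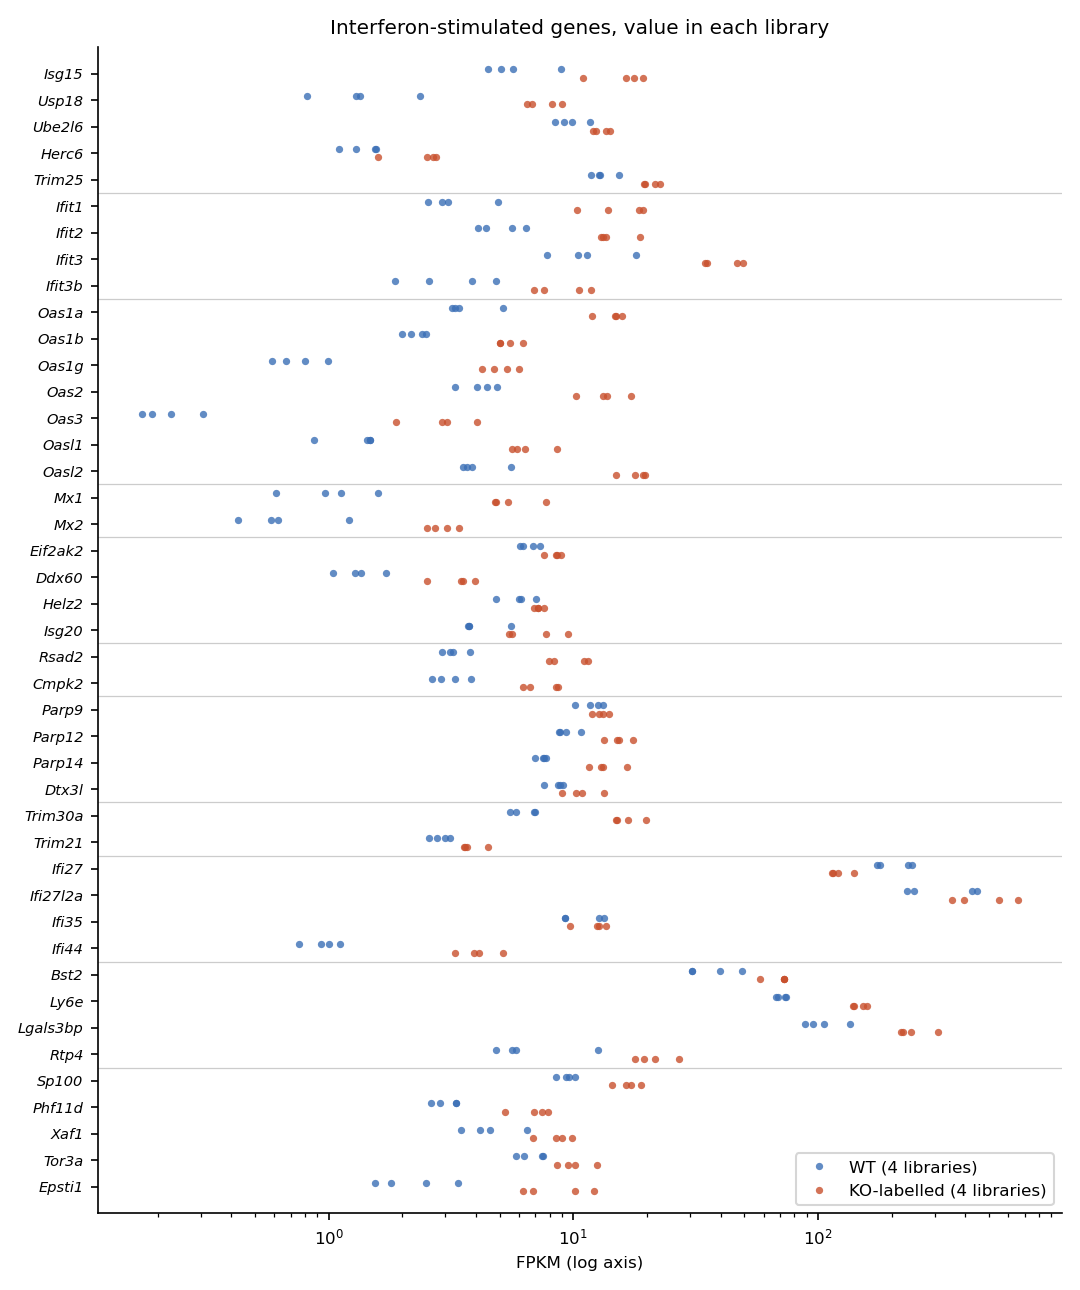
FPKM (log axis) of each of the 43 members in the 4 WT (blue) and 4 KO-labelled (orange) libraries, 1 point per library, with lines between the classes described in the text. The 2 clouds of points separate for most members, Ifi27 is reversed, and Parp9, Dtx3l, Helz2, Ifi35, Ifi27l2a and Isg20 overlap.

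Without WT1 and WT2, the libraries with liver transcripts, 32 members were called higher, while the calls over all genes dropped from 1689 to 729 higher and from 2683 to 1029 lower. Without WT4 and KO4, 33 members were called higher (2017 of all genes), and without WT2 and KO1, 38 were (1196 of all genes). Without WT1 or KO3 alone, 1100 and 1104 of all genes were called higher, with 32 and 35 members. Of the members, Ifi27 alone was called lower in each of these fits. The listed genes took 74.1% to 78.7% of the fragments behind the FPKM scaling in WT but 62.6% to 66.1% in the KO-labelled libraries. Dividing each library by its own sum, so that FPKM add to 1000000, moved the median of all genes from -0.02 to 0.24. Over all genes 4226 were then higher and 1190 lower, in place of 1689 and 2683. Under that scaling 42 members were called higher, with a median of 1.49, and Ifi27 was still called lower. Cul3 was then called higher too (log2 fold change 0.37, adjusted p = 0.0478).

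**Figure D2:**
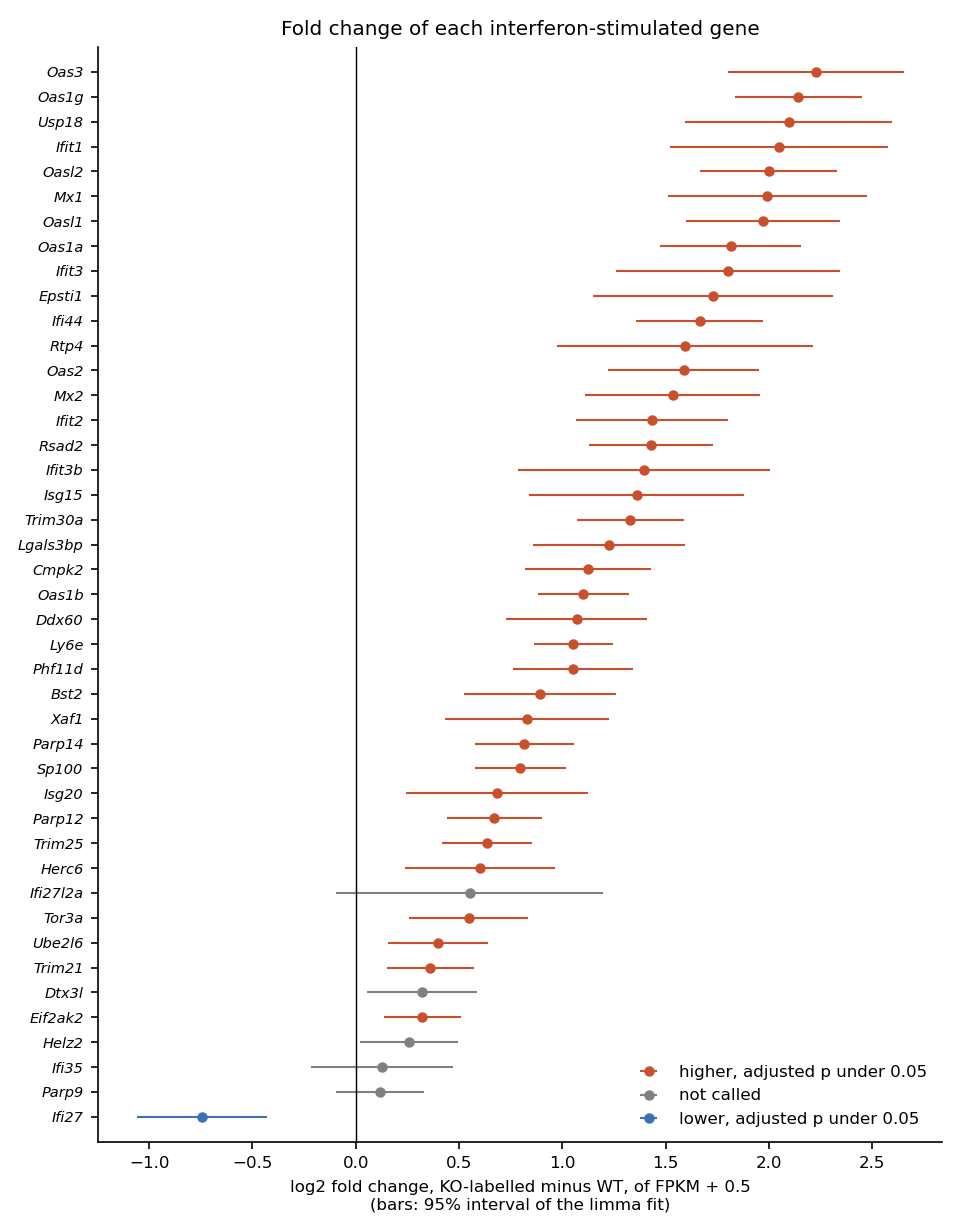
Log2 fold change of each member, KO-labelled minus WT, with the 95% interval of the limma fit (n = 4 libraries per group), ordered by size. The 37 members called higher (orange) run from 0.32 for Eif2ak2 to 2.23 for Oas3, 5 are not called (grey) and Ifi27 is called lower (blue).

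The promoters of the members were then searched for the core of the interferon-stimulated response element, to which STAT2 and IRF9 are recruited. The core searched was GAAA, any 2 bases, then GAAA again, on either strand, with overlapping copies counted. RefSeq promoter windows (GRCm38.p6, 250 bases before to 50 after the annotated start) were matched by symbol for 31 members. The core was in 13 of them (41.9%), beside 3.99% of the 27025 genes with such a window. All 13 were called higher, with a median log2 fold change of 1.40 and a range of 0.32 to 2.23. Of the 18 members whose window held no copy, 15 were called higher, with a median of 0.81 and a range of 0.13 to 2.0. The core of the gamma-activated site, TTCNNNGAA, which reads the same on both strands and can overlap the other core, was in 6 of the 31 (19.4%), beside 9.55% of all. A match describes letters in a window and not binding. A copy was found in 7 of the classes described later, and for 6 of these the window of the most abundant risen member with a copy is shown. These windows were picked for holding the core, so they show its form and not how often it recurs. They are read 5′ to 3′ on the strand of the gene with the copies of the core in capitals.
Isg15 (chr4:156200769-156201068, minus strand): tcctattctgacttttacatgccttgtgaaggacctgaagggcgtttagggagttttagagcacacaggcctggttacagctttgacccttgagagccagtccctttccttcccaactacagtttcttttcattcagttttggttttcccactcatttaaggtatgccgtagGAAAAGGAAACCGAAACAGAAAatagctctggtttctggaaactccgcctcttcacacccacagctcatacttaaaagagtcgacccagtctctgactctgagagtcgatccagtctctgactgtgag
Ifit3 (chr19:34583279-34583578, plus strand): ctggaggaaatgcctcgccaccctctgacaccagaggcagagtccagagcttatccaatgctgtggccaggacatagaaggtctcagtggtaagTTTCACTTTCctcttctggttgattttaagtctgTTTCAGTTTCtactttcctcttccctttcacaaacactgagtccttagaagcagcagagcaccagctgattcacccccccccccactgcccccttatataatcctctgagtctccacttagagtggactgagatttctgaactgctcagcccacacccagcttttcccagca
Oas1a (chr5:120907476-120907775, minus strand): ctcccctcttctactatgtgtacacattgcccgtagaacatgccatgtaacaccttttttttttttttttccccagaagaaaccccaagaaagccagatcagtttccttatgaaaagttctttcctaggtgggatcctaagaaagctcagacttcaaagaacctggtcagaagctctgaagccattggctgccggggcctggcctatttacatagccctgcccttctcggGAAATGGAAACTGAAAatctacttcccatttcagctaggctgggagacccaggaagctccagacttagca
Eif2ak2 (chr17:78882523-78882822, minus strand): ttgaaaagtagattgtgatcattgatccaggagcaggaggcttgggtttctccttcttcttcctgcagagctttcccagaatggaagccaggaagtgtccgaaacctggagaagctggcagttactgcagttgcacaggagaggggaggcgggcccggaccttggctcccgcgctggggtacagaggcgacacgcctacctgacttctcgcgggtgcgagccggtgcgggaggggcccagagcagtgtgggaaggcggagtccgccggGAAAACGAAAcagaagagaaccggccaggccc
Trim30a (chr7:104465144-104465443, minus strand): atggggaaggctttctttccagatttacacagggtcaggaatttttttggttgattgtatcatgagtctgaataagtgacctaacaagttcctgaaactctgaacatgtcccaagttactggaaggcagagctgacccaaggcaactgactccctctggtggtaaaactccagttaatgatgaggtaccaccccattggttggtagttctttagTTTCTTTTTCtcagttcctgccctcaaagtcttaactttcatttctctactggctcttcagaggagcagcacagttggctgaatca
Bst2 (chr8:71537423-71537722, minus strand): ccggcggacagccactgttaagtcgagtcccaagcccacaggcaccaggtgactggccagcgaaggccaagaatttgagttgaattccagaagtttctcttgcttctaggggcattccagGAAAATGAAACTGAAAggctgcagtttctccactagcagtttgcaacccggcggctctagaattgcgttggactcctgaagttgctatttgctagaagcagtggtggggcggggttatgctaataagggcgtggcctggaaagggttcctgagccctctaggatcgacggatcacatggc
In Isg15 3 overlapping copies ended 69, 63 and 57 bases before the start. Ifit3 had 2 separate copies on the other strand, while Oas1a and Bst2 each had an overlapping pair, which in Oas1a ended 11 and 5 bases before the start. The single Eif2ak2 copy lay after the start.

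**Figure D3:**
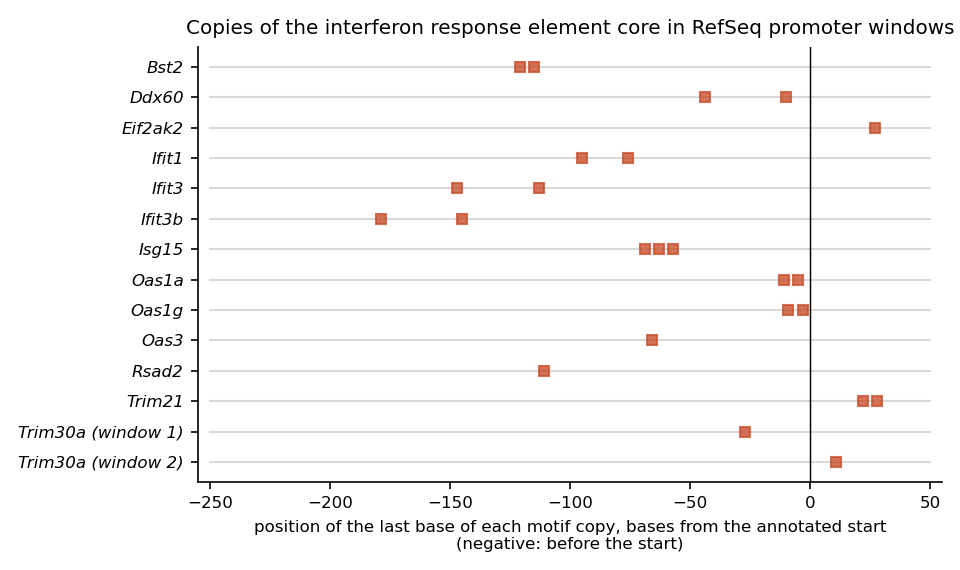
Position of the copies of the response element core in the promoter windows of the 13 members that held one, in bases from the annotated start (x axis, negative before the start). Grey lines are the windows, and Trim30a has a window for each of 2 starts. Each copy is placed by its last base, and these lie between 179 bases before the start (Ifit3b) and 28 bases after it (Trim21).

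All 5 genes of the ISG15 system that were read here rose, by amounts that differed between them. ISG15 is a ubiquitin-like protein attached to other proteins by the conjugating enzyme UBE2L6 and, in mice, the ligase HERC6, and removed by USP18. Isg15 (GRCm38 chromosome 4, 156199424 to 156200818), whose promoter held 3 copies of the core, was 5.09, 8.89, 5.66 and 4.47 FPKM in WT and 16.4, 17.8, 10.9 and 19.2 FPKM in KO-labelled fat (log2 fold change 1.36 ± 0.23, adjusted p = 0.00316). Its lowest KO-labelled library, KO3, lay above its highest WT library, WT2. Usp18, which also restrains the interferon receptor, had the largest rise of the class, from 1.46 ± 0.651 FPKM in WT to 7.60 ± 1.17 FPKM in KO-labelled fat (log2 fold change 2.10 ± 0.22, adjusted p = 0.000350). Trim25, a ubiquitin ligase that acts on the RNA sensor RIG-I, was 12.8, 11.8, 12.9 and 15.4 FPKM in WT and 19.4, 22.7, 21.5 and 19.6 FPKM in KO-labelled fat (log2 fold change 0.64 ± 0.10, adjusted p = 0.00179). Ube2l6 was 9.20, 11.7, 9.92 and 8.395 FPKM in WT and 12.0, 14.1, 12.3 and 13.6 FPKM in KO-labelled fat (log2 fold change 0.40 ± 0.11, adjusted p = 0.0229), so its groups came close without overlapping. Herc6 rose from 1.38 ± 0.220 FPKM in WT to 2.38 ± 0.538 FPKM in KO-labelled fat (log2 fold change 0.60 ± 0.16, adjusted p = 0.0218), and 10.3% of its 100-base stretches also occur in a predicted gene, Gm45193. The calls of both smaller rises were lost with single libraries left out. The fold changes then stayed at 0.33 to 0.48 for Ube2l6 and 0.53 to 0.75 for Herc6. Ube2l6 lost its call without WT1 (adjusted p = 0.0669), KO2 (0.0655) or KO4 (0.0521) and without both WT4 and KO4 (0.0770). Herc6 lost its call without WT1 (adjusted p = 0.0589), KO2 (0.0625), KO3 (0.0627) or KO4 (0.0531), without WT1 and WT2 (0.104) and without WT4 and KO4 (0.0855).

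All 4 IFIT genes rose. Their proteins bind the ends of foreign RNA and block its translation, and the genes lie within 99.3 kb on chromosome 19. Ifit3 was the most abundant, at 11.4, 18.1, 10.4 and 7.78 FPKM in WT and 35.2, 46.8, 34.6 and 49.5 FPKM in KO-labelled fat (log2 fold change 1.80 ± 0.24, adjusted p = 0.000996). Ifit2 was 4.42, 6.43, 5.60 and 4.07 FPKM in WT and 13.3, 18.7, 12.97 and 13.6 FPKM in KO-labelled fat (log2 fold change 1.43 ± 0.16, adjusted p = 0.000489). Ifit1 was 2.89, 4.90, 3.07 and 2.54 FPKM in WT and 10.4, 18.5, 13.9 and 19.2 FPKM in KO-labelled fat and had the largest rise of the family (log2 fold change 2.05 ± 0.23, adjusted p = 0.000506). In each of these genes the WT libraries were highest in WT2, and no KO-labelled library reached down to them. Ifit3b rose from 3.29 ± 1.33 FPKM in WT to 9.20 ± 2.33 FPKM in KO-labelled fat (log2 fold change 1.40 ± 0.27, adjusted p = 0.00583). Of the 100-base stretches of Ifit3b transcripts, 27.4% also occur in Ifit3, so the split of reads between these copies is uncertain.

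All 7 OAS genes rose. OAS enzymes make a short oligoadenylate that activates the RNA-degrading enzyme RNase L, while the OAS-like proteins act in other ways. Oasl2 was 3.53, 5.57, 3.67 and 3.84 FPKM in WT and 14.9, 19.7, 17.8 and 19.3 FPKM in KO-labelled fat (log2 fold change 1.998 ± 0.15, adjusted p = 6.35e-05). Oas1a was 3.20, 3.41, 3.29 and 5.18 FPKM in WT and 14.9, 15.8, 11.9 and 14.8 FPKM in KO-labelled fat (log2 fold change 1.81 ± 0.15, adjusted p = 0.000115). Oas2 was 3.30, 4.87, 4.05 and 4.42 FPKM in WT and 13.7, 17.3, 13.2 and 10.2 FPKM in KO-labelled fat (log2 fold change 1.59 ± 0.16, adjusted p = 0.000296). In none of them did the groups overlap. WT2 was the highest WT library for Oasl2 and Oas2, and WT4 for Oas1a. For Oasl2 and Oas1a that library lay well above the rest of WT. Oas3 rose from 0.173 to 0.307 FPKM in WT to 1.88 to 4.04 FPKM (log2 fold change 2.23 ± 0.19, adjusted p = 0.000121), with 28 reads in its lowest library. That fold change was the largest of the 43 here, but with a pseudocount of 1 it was 1.67, below that of Ifit1 (1.91). Oas1g rose from 0.764 ± 0.179 FPKM in WT to 5.08 ± 0.770 FPKM in KO-labelled fat (2.14 ± 0.14) and Oasl1, whose product limits IRF7 translation in mice, from 1.31 ± 0.296 FPKM in WT to 6.61 ± 1.36 FPKM in KO-labelled fat (1.97 ± 0.16). Oas1b, known for its part in resistance to flaviviruses, rose least, from 2.27 ± 0.235 FPKM in WT to 5.45 ± 0.579 FPKM in KO-labelled fat (1.10 ± 0.10). The annotation marks Oas1b as a polymorphic pseudogene, intact in some strains only, and the strain here is not given. Oas1a and Oas1g share 730 of their 100-base stretches (40.9% and 31.2% of each), so their separate values are uncertain.

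Both MX genes rose from low levels. They encode GTPases that block virus replication, MX1 in the nucleus and MX2 in the cytoplasm in mice. The annotation marks Mx2, like Oas1b, as a polymorphic pseudogene, so its RNA need not stand for a working protein. Mx1 was 0.964, 1.59, 0.611 and 1.13 FPKM in WT and 5.43, 7.76, 4.80 and 4.84 FPKM in KO-labelled fat (log2 fold change 1.99 ± 0.21, adjusted p = 0.000362). Mx2 was 0.619, 1.21, 0.579 and 0.428 FPKM in WT and 2.54, 3.398, 2.73 and 3.04 FPKM in KO-labelled fat (log2 fold change 1.54 ± 0.19, adjusted p = 0.000665). For both, WT2 was the highest WT library and lay below every KO-labelled library.

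Rsad2 and Cmpk2 are neighbours on chromosome 12 and rose alike. Rsad2 encodes viperin, which makes a nucleotide that ends RNA chains, and Cmpk2 a mitochondrial nucleotide kinase. Rsad2 was 3.13, 3.77, 3.21 and 2.92 FPKM in WT and 7.99, 11.0, 8.35 and 11.5 FPKM in KO-labelled fat (log2 fold change 1.43 ± 0.13, adjusted p = 0.000182). Cmpk2 was 2.89, 3.81, 3.30 and 2.66 FPKM in WT and 6.25, 8.47, 6.67 and 8.63 FPKM in KO-labelled fat (log2 fold change 1.124 ± 0.13, adjusted p = 0.000643). In both genes KO2 and KO4 were the upper pair and WT2 was the highest WT library.

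The genes for an RNA-sensing kinase, helicases and an exonuclease moved less. Eif2ak2 encodes PKR, which stops translation on meeting double-stranded RNA, and with its single copy of the core it was 6.25, 7.32, 6.83 and 6.08 FPKM in WT and 7.58, 8.88, 8.48 and 8.61 FPKM in KO-labelled fat (log2 fold change 0.32 ± 0.082, adjusted p = 0.0190). Helz2, a helicase and transcriptional coactivator gene, was 6.02, 7.01, 6.14 and 4.82 FPKM in WT and 7.19, 7.61, 6.93 and 7.15 FPKM in KO-labelled fat, with KO3 below WT2, and did not pass the test (log2 fold change 0.26 ± 0.10, adjusted p = 0.0911). Isg20, a 3′ exonuclease gene, was 3.73, 5.54, 3.71 and 3.74 FPKM in WT and 9.56, 5.64, 5.46 and 7.73 FPKM in KO-labelled fat (log2 fold change 0.68 ± 0.19, adjusted p = 0.0282), and KO3 lay below WT2. Ddx60, a helicase gene, rose more, from 1.35 ± 0.282 FPKM in WT to 3.38 ± 0.604 FPKM in KO-labelled fat (log2 fold change 1.07 ± 0.15, adjusted p = 0.00128). The Eif2ak2 call was lost without WT1 (adjusted p = 0.0591), KO2 (0.0559) or KO3 (0.0528), without WT1 and WT2 (0.0694) and without WT4 and KO4 (0.0687). The Isg20 call was lost without any 1 of WT1, WT3, WT4, KO1 or KO4 (adjusted p = 0.0507 to 0.0761), without WT1 and WT2 (0.0634), without WT4 and KO4 (0.107) and without a filter (0.0541). Helz2 passed without WT2 (adjusted p = 0.0429), with quantile normalization (0.0466) and scaled to a sum of 1000000 (0.00359).

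Among the ADP-ribosylation genes 2 of 4 rose. PARP12 and PARP14 add single ADP-ribose units to proteins, and PARP9 works as a partner of the ubiquitin ligase DTX3L. Parp14 was 7.57, 7.52, 7.76 and 6.95 FPKM in WT and 11.6, 16.5, 13.2 and 12.9 FPKM in KO-labelled fat (log2 fold change 0.81 ± 0.11, adjusted p = 0.000870). Parp12 was 8.85, 10.7, 9.36 and 8.73 FPKM in WT and 13.3, 17.5, 15.3 and 15.0 FPKM in KO-labelled fat (log2 fold change 0.67 ± 0.10, adjusted p = 0.00177). Parp9 was 12.7, 13.3, 11.7 and 10.2 FPKM in WT and 12.0, 14.0, 12.7 and 13.3 FPKM in KO-labelled fat, with KO1 below WT1 and WT2, and did not pass (log2 fold change 0.12 ± 0.094, adjusted p = 0.368; 95% interval of the log2 fold change -0.10 to 0.33). Dtx3l, the partner gene on the opposite strand, went from 8.52 ± 0.625 FPKM in WT to 10.9 ± 1.84 FPKM in KO-labelled fat (log2 fold change 0.32 ± 0.12, adjusted p = 0.0673; interval 0.055 to 0.59), with KO1 below WT2. Parp9 and Dtx3l share 458 exon bases, and reads in them cannot be given to 1 strand here. Parp9 passed scaled to a sum of 1000000 (log2 fold change 0.40, adjusted p = 0.0103), and Dtx3l did so too (0.00681), with quantile normalization (0.0348) and median-of-ratios scaling (0.0458), without KO1 (0.0292) and without WT2 and KO1 (0.0452).

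Both TRIM ligase genes rose. Trim30a, of a mouse family that restrains innate signalling, was 5.84, 7.01, 6.93 and 5.52 FPKM in WT and 15.0, 19.8, 16.8 and 15.2 FPKM in KO-labelled fat (log2 fold change 1.33 ± 0.11, adjusted p = 0.000130). Trim21, whose product binds antibody-coated viruses inside cells, was 2.78, 3.12, 2.98 and 2.58 FPKM in WT and 4.47, 3.67, 3.57 and 3.61 FPKM in KO-labelled fat (log2 fold change 0.36 ± 0.093, adjusted p = 0.0196). Trim21 moved little, with KO1 alone well above the rest. Its call was lost without WT1 (adjusted p = 0.0558) and without WT1 and WT2 (0.0850).

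The genes named IFI27, IFI35 and IFI44 went different ways. Ifi27 and Ifi27l2a encode small hydrophobic proteins of the ISG12 family and lie within 9.47 kb on chromosome 12. Ifi27 (103434211 to 103440239) was 233, 243, 179 and 174 FPKM in WT and 120.3, 115, 114 and 140.3 FPKM in KO-labelled fat and fell (log2 fold change -0.75 ± 0.14, adjusted p = 0.00491), with every KO-labelled library below every WT library, as in 19.1% of all genes. Ifi27l2a (103442167 to 103443680), the most abundant member, was 448, 424, 248 and 232 FPKM in WT and 550.0, 394, 354 and 658 FPKM in KO-labelled fat and did not pass (log2 fold change 0.55 ± 0.28, adjusted p = 0.171; interval -0.093 to 1.20). Its upper WT pair, WT1 and WT2, overlapped its lower KO-labelled pair, KO2 and KO3. Ifi27l2a made up 33.8% and Ifi27 13.5% of the summed FPKM of the members, so sums over the set follow them. Ifi35, which binds the partner protein NMI, was 12.7, 13.3, 9.27 and 9.23 FPKM in WT and 13.6, 12.5, 9.71 and 12.7 FPKM in KO-labelled fat and did not pass (log2 fold change 0.13 ± 0.15, adjusted p = 0.556; interval -0.22 to 0.47). It shares 290 exon bases with Gm11626 on the opposite strand. Ifi44 rose from 0.949 ± 0.149 FPKM in WT to 4.12 ± 0.768 FPKM in KO-labelled fat (log2 fold change 1.66 ± 0.14, adjusted p = 0.000109). Scaled to a sum of 1000000, Ifi27l2a (adjusted p = 0.0280) and Ifi35 (0.0340) passed as higher, and Ifi27l2a also passed with quantile normalization (0.0396).

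All 4 surface, secreted and chaperone genes rose, and 3 of them were among the 5 members with a mean of at least 50 FPKM. Lgals3bp, which encodes a secreted glycoprotein, was 106, 135, 95.2 and 88.3 FPKM in WT and 223, 241, 219 and 308 FPKM in KO-labelled fat (log2 fold change 1.23 ± 0.16, adjusted p = 0.000963). Ly6e, a lipid-anchored surface protein gene, was 67.4, 73.1, 74.2 and 68.7 FPKM in WT and 139.7, 141, 153 and 158 FPKM in KO-labelled fat (log2 fold change 1.05 ± 0.083, adjusted p = 9.62e-05), with a gap between the groups wider than the range within either. Bst2 encodes tetherin, which holds budding virus on the cell surface, and was 39.9, 48.7, 30.5 and 30.5 FPKM in WT and 72.3, 72.6, 58.1 and 72.5 FPKM in KO-labelled fat (log2 fold change 0.89 ± 0.16, adjusted p = 0.00444). Rtp4, a chaperone gene for G-protein-coupled receptors, rose from 7.22 ± 3.63 FPKM in WT to 21.5 ± 3.96 FPKM in KO-labelled fat (log2 fold change 1.59 ± 0.27, adjusted p = 0.00341), with WT2 at 12.6 FPKM and the other WT libraries at 4.81 to 5.81 FPKM.

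The 5 remaining members, with roles in the nucleus, the ER or cell death, all rose. Sp100, a scaffold of nuclear bodies, was 9.38, 10.2, 9.57 and 8.47 FPKM in WT and 14.4, 19.0, 16.4 and 17.3 FPKM in KO-labelled fat (log2 fold change 0.80 ± 0.10, adjusted p = 0.000684). Tor3a, an ATPase gene of the ER, was 6.31, 7.54, 5.82 and 7.46 FPKM in WT and 10.1, 12.4, 9.56 and 8.55 FPKM in KO-labelled fat (log2 fold change 0.55 ± 0.13, adjusted p = 0.0127). Leaving out WT1 and WT2 ended the Tor3a call (adjusted p = 0.0712). Xaf1, an antagonist of the apoptosis inhibitor XIAP, was 4.17, 6.45, 4.55 and 3.48 FPKM in WT and 6.85, 8.95, 8.50 and 9.87 FPKM in KO-labelled fat (log2 fold change 0.83 ± 0.17, adjusted p = 0.00865). No KO-labelled value of these genes lay under a WT value, though for Xaf1 KO1 and WT2 were close. Phf11d, a PHD finger gene, rose by 1.05 ± 0.13 and Epsti1 by 1.73 ± 0.26 on the log2 scale. In Epsti1 the upper libraries were KO1 and KO2 among the KO-labelled and WT4 in WT, and KO4 was the lowest of the KO-labelled, as for the macrophage markers, whose part in this rise was not tested.

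Within each group the members also shared an order of libraries. WT2 was the highest of the 4 WT libraries in 33 of 43 members and WT4 the lowest in 29. KO2 was the highest KO-labelled library in 25 members and KO1 the lowest in 24. The same counts were not made over all genes. FPKM of all listed genes summed to 229614, 234141, 220771 and 211717 in WT1 to WT4, also highest in WT2 and lowest in WT4. In KO1 to KO4 these sums were 192807, 182517, 175006 and 190359, highest in KO1. The part of these sums in the order of the members was not tested. The median deviation from the group mean was 0.22 in WT2, -0.17 in WT4, 0.18 in KO2 and -0.14 in KO1, in log2 units. Liver and epididymis transcripts were also high in WT2, and epididymis transcripts in KO1. Their part in this order was not tested.

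The order of the macrophage markers was another one. WT4 was the highest WT library in 12 of 13 macrophage markers and KO4 the lowest KO-labelled library in all 13, and KO4 exceeded WT4 in 4 of them. KO4 exceeded WT4 in 42 of 43 members, all but Ifi27. The share of all genes with KO4 above WT4 was not counted. With 37 members called higher over all libraries, KO4 and WT4 included, a high count here adds little. Without Ifi27 and Ifi27l2a, the other 41 members summed to 357 FPKM in WT4 and 980 FPKM in KO4, beside 384 to 485 FPKM in WT1 to WT3 and 815 to 931 FPKM in KO1 to KO3. These sums follow their most abundant genes, Lgals3bp, Ly6e and Bst2. Those were at 88.3, 68.7 and 30.5 FPKM in WT4 and at 308, 158 and 72.5 FPKM in KO4. Markers of other cell types that make or answer interferon were also read. The 4 plasmacytoid dendritic cell markers summed to 0.371 to 0.596 FPKM in WT and 0.592 to 0.828 FPKM in the KO-labelled libraries, with Siglech at most 0.561 FPKM. Of 6 T cell markers, 5 had a higher mean in the KO-labelled libraries and 4 did so without overlap, all at low levels. Cd3e had means of 0.104 and 0.464 FPKM, Cd3g 0.0830 and 0.558 FPKM, Cd4 0.0923 and 0.895 FPKM and Cd8a 0.112 and 0.654 FPKM, in WT and KO-labelled fat, all under the filter for testing. Trac, the most abundant, went the other way (6.22 and 2.70 FPKM) and did not pass. The 6 conventional dendritic cell markers summed to 12.9 to 28.4 FPKM in WT and 11.6 to 16.8 FPKM in the KO-labelled libraries. Of them 2, Xcr1 and Clec9a, were called higher (log2 fold change 0.67 and 0.40). Flt3 also leaned up (0.47), while Cd209a (-0.73, adjusted p = 0.0549), Itgax (-0.13) and Zbtb46 (-0.20) leaned down, none of them called. Of 5 neutrophil markers, S100a8 was called higher (means of 6.25 and 11.7 FPKM in WT and KO-labelled fat). S100a9 went the other way (means of 0.776 and 0.618 FPKM) and was not called. Mpo, Retnlg and Cxcr2 were at or near 0. Of 4 NK cell markers 3, and of 4 B cell markers 2, had a higher mean in the KO-labelled libraries, none without overlap. Of these lists only Gzma and Cd79b passed the filter. The B cell marker Cd79b was called higher (log2 fold change 0.81, adjusted p = 0.0241). The NK cell marker Gzma was not called (-0.14, adjusted p = 0.568). Endothelial markers were abundant and moved down, at 168.7 to 239.8 FPKM in sum in WT and 115 to 137 FPKM in the KO-labelled libraries, with 6 of 7 called lower. The part of these cell types in the rises was not tested.

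**Figure D4:**
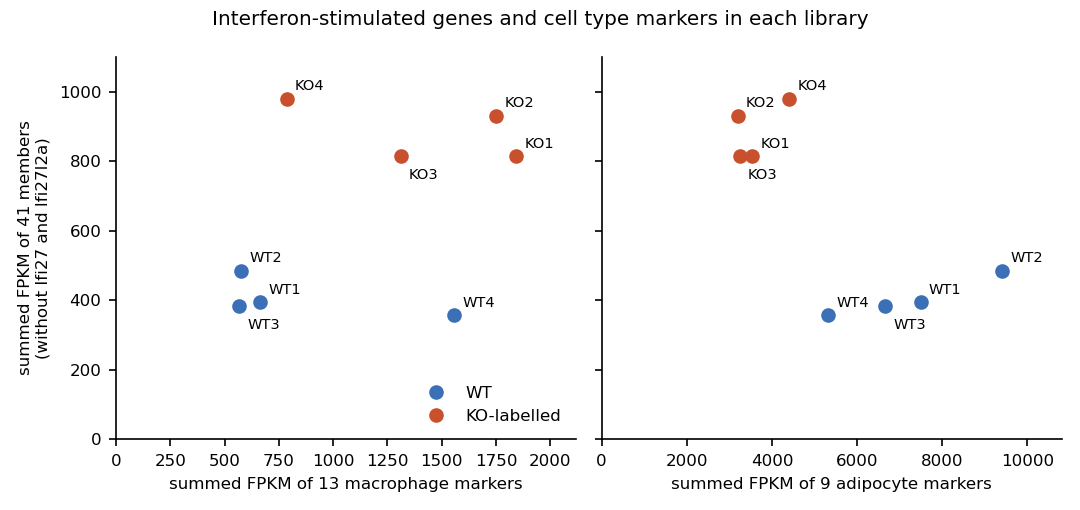
Summed FPKM of 41 members (y axis, Ifi27 and Ifi27l2a left out) against the summed FPKM of 13 macrophage markers (left) and 9 adipocyte markers (right), 1 point per library. The most abundant of the 41 members are Lgals3bp, Ly6e and Bst2. The member sum is 815 to 980 in the KO-labelled libraries and 357 to 485 in WT, while on the macrophage axis WT4 (1556) lies above KO4 (786) and KO3 (1311).

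Upstream in the pathway, the ligands were barely read. Of 21 interferon genes listed, Ifng and Ifnz had a row, with at most 5 and 2 reads in a library, and neither could be tested. The others had no row under the names searched. Of the receptors and their kinases, 2 of 8 tested genes rose and none fell, beside 11.7% and 18.6% of all genes tested. Ifngr1, the ligand-binding chain for interferon-gamma, was 48.8, 53.9, 54.9 and 51.6 FPKM in WT and 68.9, 68.5, 72.9 and 68.8 FPKM in KO-labelled fat (log2 fold change 0.41 ± 0.074, adjusted p = 0.00425). Jak2, the gene of a kinase of the interferon-gamma receptor, rose by 0.32 ± 0.10 on the log2 scale (adjusted p = 0.0425), but the groups overlapped. The Jak2 call was lost without any 1 of WT1, WT2, WT4, KO2, KO3 or KO4 (adjusted p = 0.0702 to 0.114) and in all 3 fits without a pair of libraries (0.0541 to 0.268). It was also lost without a filter (0.0803) and by limma without a trend (0.0533). The type I receptor genes did not pass the test. Ifnar1 had a mean of 10.04 ± 1.21 FPKM in WT and 11.0 ± 1.17 FPKM in KO-labelled fat (95% interval of the log2 fold change -0.11 to 0.37), and Ifnar2 one of 14.7 ± 0.793 FPKM in WT and 14.4 ± 1.67 FPKM in KO-labelled fat (-0.25 to 0.18).

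Of 8 STAT and IRF factors, 4 rose and none fell, beside 11.7% and 18.6% of all genes tested. Irf7, which drives interferon genes and is itself induced, was 4.50, 7.42, 4.21 and 3.77 FPKM in WT and 26.2, 28.8, 23.8 and 32.8 FPKM in KO-labelled fat (log2 fold change 2.41 ± 0.19, adjusted p = 0.000107). Stat2 was 6.68, 9.06, 6.84 and 6.23 FPKM in WT and 11.3, 13.9, 12.5 and 12.5 FPKM in KO-labelled fat (log2 fold change 0.77 ± 0.12, adjusted p = 0.00193), and Irf9, which joins STAT2 on DNA, was 4.76, 7.39, 4.61 and 4.51 FPKM in WT and 8.86, 9.25, 8.39 and 8.37 FPKM in KO-labelled fat (log2 fold change 0.69 ± 0.14, adjusted p = 0.00804). In all of these WT2 was the highest WT library and stayed below the KO-labelled range. Irf8, a factor of myeloid cells, rose by 0.76 ± 0.17 (adjusted p = 0.0119) with WT4 highest of WT and KO4 lowest of the KO-labelled, a call lost without WT1 and WT2 (0.0869) and without WT2 and KO1 (0.0608). The part of macrophage content in it was not tested. Irf1, a factor gene induced by interferon-gamma, was 10.8, 10.5, 9.95 and 8.78 FPKM in WT and 10.1, 10.5, 10.7 and 8.31 FPKM in KO-labelled fat (log2 fold change -0.015 ± 0.10, adjusted p = 0.924; interval -0.24 to 0.21). Its groups overlapped, and the sign of this small difference turned under 3 other scalings, with no call in any.

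**Figure D5:**
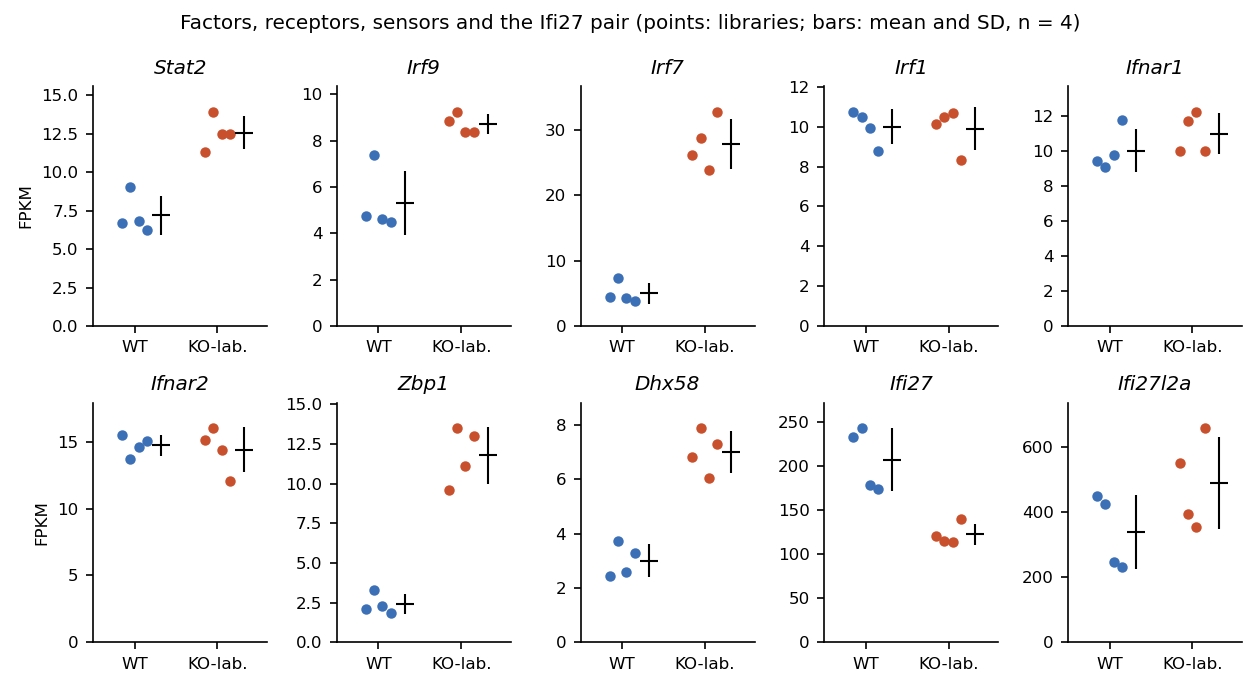
FPKM by library (points), with mean and SD (bars, n = 4 per group), of 4 transcription factor genes, the receptor genes Ifnar1 and Ifnar2, the sensor genes Zbp1 and Dhx58, and the neighbours Ifi27 and Ifi27l2a, each on its own axis from 0. Stat2, Irf9, Irf7, Zbp1 and Dhx58 separate the groups upwards and Ifi27 downwards, while Irf1, Ifnar1, Ifnar2 and Ifi27l2a overlap.

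Of the 6 brakes on the pathway, 2 rose and 1 fell, beside 11.7% and 18.6% of all genes tested, so these counts single out no direction. The phosphatase gene Ptpn2 rose by 0.46 ± 0.11 and Pias1, a SUMO ligase gene, by 0.54 ± 0.10 on the log2 scale (adjusted p = 0.0169 and 0.00367). The phosphatase gene Ptpn11 fell by 0.44 ± 0.11 on the log2 scale (adjusted p = 0.0163). Leaving out WT1 and WT2 ended the Ptpn2 call (adjusted p = 0.0811). The Ptpn11 call was lost without KO3 (adjusted p = 0.0506), without WT1 and WT2 (0.133), without WT2 and KO1 (0.0776), with quantile normalization (0.0893) and scaled to a sum of 1000000 (0.170).

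Of 15 tested sensors and adaptors of nucleic acid, 8 rose and none fell, beside 11.7% and 18.6% of all genes tested. Many of these sensors are interferon-induced themselves. Zbp1, a sensor of left-handed nucleic acid, was 2.10, 3.31, 2.32 and 1.87 FPKM in WT and 9.59, 13.5, 11.1 and 13.002 FPKM in KO-labelled fat (log2 fold change 2.10 ± 0.16, adjusted p = 9.06e-05). The RIG-I family genes also rose, Dhx58 by 1.11 ± 0.13, Ifih1 by 0.86 ± 0.14 and Ddx58 by 0.78 ± 0.12, and so did the RNA-editing gene Adar by 0.61 ± 0.090. The endosomal receptor gene Tlr7 was 1.37, 1.32, 1.76 and 4.15 FPKM in WT and 10.4, 10.4, 9.34 and 5.18 FPKM in KO-labelled fat (log2 fold change 1.88 ± 0.33, adjusted p = 0.00388), and Tlr9 rose from 1.148 ± 0.673 FPKM in WT to 5.15 ± 1.52 FPKM in KO-labelled fat (log2 fold change 1.81 ± 0.28, adjusted p = 0.00228). Both were highest of WT in WT4 and lowest of the KO-labelled in KO4, the order of the macrophage markers, whose part in these rises was not tested. Samhd1, a nucleotide hydrolase gene, rose by 0.72 ± 0.18 (adjusted p = 0.0188) with KO4 below WT4, and the call was lost without WT1 (0.0559), WT2 (0.0511), WT1 and WT2 (0.167) or WT2 and KO1 (0.0970).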

How the data were processed

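Poly(A) RNA of 8 fat libraries was sequenced, and the authors deposited FPKM values, per the file headers, for 28295 genes. Per the submitters' processing notes the tools were HISAT2 2.0.5 and featureCounts, on build mm10. Annotation release and strand setting are not given in the sources used here. Symbols, coordinates (1-based) and exon lengths came by gene ID from GENCODE M21 (GRCm38), which held 28255 of the IDs (99.9%). With these lengths 97.9% of values between 0.5 and 200 reads lay within 0.02 of a whole read, so reads could be recovered for 98.5% of genes.

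Groups were compared on log2(FPKM + 0.5) with limma 3.58.1 (R 4.3.3, trend and robust moderation, no covariate, two-sided) in 1 fit of all 8 libraries. Adjustment (Benjamini-Hochberg) covered the 14400 genes whose mean FPKM reached 0.5, with calls at an adjusted p under 0.05. Fold changes on this scale understate those of low genes. Errors are SDs (n = 4) beside FPKM means and moderated standard errors beside log2 fold changes. The fit was tested on simulated data. The members, classes and lists were chosen with earlier results of these data known. Library values are given for the 3 most abundant members of each class, for members called lower and for any whose sign differed from its class; of the pathway lists, called genes are named, and 1 gene is not reported here. Irf1, Ifnar1 and Ifnar2 were added after their values were seen. Alternatives changed the pseudocount, filter, scaling, moderation, block and libraries; voom on recovered reads and the fit without WT2 and KO1 were chosen after seeing the data. Shared sequence was counted in GENCODE transcripts with Python 3.11.15, numpy 2.4.6, pandas 2.3.3 and scipy 1.17.1, and plots were drawn with matplotlib 3.10.9.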

Additional observations from a re-analysis of the deposited data

Results flagged for a closer look

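A library lay far from the other 3 of its group in 8 of 88 sets of 4 values tested, by the gap to its neighbour over the range (Dixon's 95% critical value), and chance flags about 1 in 20 such sets. WT2 was the high library for Oasl2 (5.57 FPKM), Isg20 (5.54 FPKM) and Rtp4 (12.6 FPKM), and it was also the highest WT library for most other members. Oas1a was high in WT4 (5.18 FPKM), Ifit2 in KO2 (18.7 FPKM) and Trim21 in KO1 (4.47 FPKM). Oasl1 was low in WT3 (0.870 FPKM) and Bst2 in KO3 (58.1 FPKM).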

How the results depend on the processing

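Of the 37 risen members, 31 kept their call under all 21 other settings, and 42 members kept a fold change above 0 in each. The count called higher ran from 32 to 42, or 32 to 38 with 1 library left out, and 1 was lower throughout. The members' median was 1.23 with a pseudocount of 0.1, 1.24 by voom, 1.28 without WT2 and KO1 and 1.49 scaled to a sum of 1000000 (1.05 to 1.18 with 1 library left out). Of all genes, 4226 were higher and 1190 lower with that scaling, 729 and 1029 without WT1 and WT2, and 1100 to 1938 and 1862 to 2794 with 1 library left out. In place of 2 receptor and kinase genes, 6 were higher with that scaling and 1 without a filter, without a trend and without each pair of libraries (1 to 2 with 1 library left out). Of the brakes, 1 was higher without WT1 and WT2 and 4 without WT4 and KO4 (2 to 3 with 1 library left out). None, 0 in place of 1, was lower scaled to 1000000, with quantile normalization, with the replicate block, without WT1 and WT2 and without WT2 and KO1 (0 to 1 with 1 library left out). The log2 fold change turned sign scaled to 1000000, with median-of-ratios scaling and with quantile normalization for Irf1 (0.26, 0.022 and 0.084) and Ifnar2 (0.23, 0.00070 and 0.11). It also turned without WT1 and WT2 (Irf1 0.073), without WT4 and KO4 (Irf1 0.0048, Ifnar2 0.052) and with 1 library left out (-0.073 to 0.063 for Irf1, -0.089 to 0.041 for Ifnar2). The cause of these shifts was not tested. Replicate numbers did not pair the libraries (r of deviations -0.060, -0.13, 0.17 and -0.32 for numbers 1 to 4). With them as a block, 35 members were higher (Isg20 and Trim21 lost their calls, adjusted p = 0.0732 and 0.0567, as did Samhd1 and Ptpn11 of the pathway lists, 0.0758 and 0.0638), as were 1113 of all genes. The motif share was 25.8% (2.06% of all genes) on the forward strand alone and 48.4% (9.76% of all genes) with the shorter core GAAANNGAA. Depth limits the ligands, with 0 to 5 reads.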
